A study of Yarrowia lipolytica with 9 samples.

Results

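The alternative oxidase and the external NADH dehydrogenase form a respiratory bypass that moves electrons without pumping protons. They were taken by locus tag, YALI0D09933g for the oxidase and YALI0F25135g for the dehydrogenase, and make 2 of the 6170 rows of the expression table. The cells were *Yarrowia lipolytica* W29, a wild-type strain of an oil-storing yeast, grown in bioreactors whose medium was held at pH 2.0, 4.0 or 6.0, with 3 cultures and 3 libraries per pH. All groups had the same strain, medium and harvest point, hour 50, and differed by label in the pH alone. The medium held glucose at 50 g/L, ammonium sulfate at 1 g/L, yeast nitrogen base at 1.7 g/L, and yeast extract at 1.5 g/L. The study asked how acidity bears on citric acid and lipid production.

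In mitochondria, NADH is usually oxidized by complex I, and the electrons pass through ubiquinone, the cytochrome bc1 complex and cytochrome c oxidase to oxygen, with protons pumped along the way for ATP synthase. The external NADH dehydrogenase is a single protein on the outer face of the inner membrane that passes electrons from cytosolic NADH to ubiquinone. The alternative oxidase takes electrons from ubiquinol and hands them straight to oxygen, so that the bc1 complex and cytochrome c oxidase are passed by. Together they can oxidize cytosolic NADH with no proton pumped. The values are transcript levels and say nothing of protein or electron flow.

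Values are normalised read counts in CPM, scaled by the authors to edgeR's effective library size, and rest on 12974822 to 17701766 recovered reads per library. The oxidase had 7708 to 40255 reads in a library and the dehydrogenase 4244 to 15815, so counting error is small beside the differences between cultures. Each library averages over the cells of a culture, so more cells with the transcript and more transcript per cell cannot be told apart. Log2 fold changes are on the scale of log2(CPM + 1) and were tested with limma. The p-values were adjusted by the Benjamini-Hochberg method across all 6165 tested genes, with 0.05 as the threshold for a call.

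The alternative oxidase transcript, YALI0D09933g, was low at pH 2.0 and high at both other pH values. It stood at 472, 952 and 620 CPM in replicates A, B and C at pH 2.0, at 2913, 2022 and 2434 CPM at pH 4.0, and at 2393, 2239 and 2429 CPM at pH 6.0. Every library at pH 4.0 and pH 6.0 was above every library at pH 2.0, while the pH 6.0 values lay inside the range of the pH 4.0 values. Such a clean split from pH 2.0 was seen for 37.6% of all genes at pH 6.0 and for 32.3% at pH 4.0. The mean was 681 ± 245 CPM at pH 2.0, 2456 ± 446 CPM at pH 4.0, and 2354 ± 101 CPM at pH 6.0 (SD, n = 3 each).

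Against pH 2.0, the oxidase was 3.60-fold higher at pH 6.0, with a 95% confidence interval of 2.59 to 5 (log2 1.85, SE 0.21, limma adjusted p = 2.16e-05). At pH 4.0 it was 3.71-fold higher than at pH 2.0, with an interval of 2.67 to 5.16 (log2 1.89, SE 0.21, limma adjusted p = 4.44e-05). Higher calls were common in this series: 35.1% of all genes were higher at pH 6.0 than at pH 2.0, and 30.8% were higher at pH 4.0 than at pH 2.0. The size of the oxidase change was less common, since 2.66% of genes had a log2 fold change at least as high for pH 6.0 against pH 2.0. For pH 4.0 against pH 2.0 that share was 0.665%, or 41 of 6165 genes.

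Between pH 6.0 and pH 4.0 the oxidase was not called. Its log2 fold change was -0.05, with an interval of -0.52 to 0.43 and an adjusted p of 0.871 in limma, so the interval runs from 0.696-fold to 1.35-fold. Its sign turned to 0.08 without pH 4.0 replicate A, again uncalled.

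The external NADH dehydrogenase transcript, YALI0F25135g, was likewise lowest at pH 2.0. It stood at 260, 334 and 276 CPM in replicates A, B and C at pH 2.0, at 844, 811 and 807 CPM at pH 4.0, and at 940, 926 and 1029 CPM at pH 6.0. The 3 groups did not overlap and were ordered by pH. Taken singly, 32.3% of all genes had every pH 4.0 library above every pH 2.0 library. For pH 6.0 above pH 4.0 that share was 31.7%, and the share with both was not counted. Group means were 290.0 ± 39.0 CPM at pH 2.0, 821 ± 20.3 CPM at pH 4.0, and 965 ± 56.3 CPM at pH 6.0 (SD, n = 3 each).

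Against pH 2.0, the dehydrogenase was 3.34-fold higher at pH 6.0, with a 95% confidence interval of 2.89 to 3.85 (log2 1.74, SE 0.09, limma adjusted p = 1.2e-07). At pH 4.0 it was 2.84-fold higher than at pH 2.0, with an interval of 2.46 to 3.28 (log2 1.51, SE 0.09, limma adjusted p = 2.78e-06). A log2 fold change at least as high was seen in 2.9% of genes for pH 6.0 against pH 2.0 and in 1.14% for pH 4.0 against pH 2.0.

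Between pH 6.0 and pH 4.0 the dehydrogenase was just short of the threshold. Every pH 6.0 library was above every pH 4.0 library, as was so for 31.7% of all genes, and 25.7% of genes were called higher. The log2 fold change was 0.23, with an interval of 0.03 to 0.44 (limma adjusted p = 0.0577). The call was made under 5 of 20 alternative settings, with adjusted p-values between 0.02 and 0.18 over all 20. In the order of its levels, pH 4.0 and pH 6.0 are therefore neighbours that were not told apart under the main test.

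**Figure D1:**
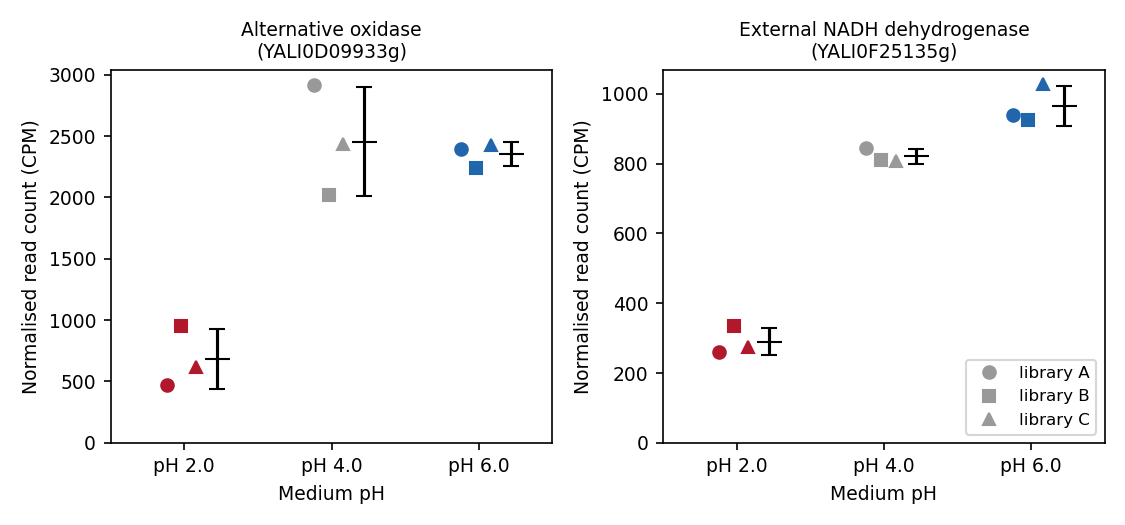
Normalised read count (CPM, linear axis from 0) of the alternative oxidase (left) and the external NADH dehydrogenase (right) by medium pH. Circles, squares and triangles are replicates A, B and C, and the bar beside them is the mean ± SD (n = 3). The oxidase spans 472 to 952 CPM at pH 2.0 and at least 2022 CPM in every other library.

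For both genes the change was larger between pH 2.0 and pH 4.0 than between pH 4.0 and pH 6.0. The change over the upper step (pH 6.0 minus pH 4.0) was smaller than that over the lower step (pH 4.0 minus pH 2.0) by 1.94 on the log2 scale for the oxidase (SE 0.37, limma adjusted p = 0.00211). For the dehydrogenase it was smaller by 1.27 (SE 0.16, limma adjusted p = 0.000349). A negative call of this contrast was made for 24.3% of all genes. The pattern of both members, higher at pH 4.0 and at pH 6.0 than at pH 2.0 and not called between pH 6.0 and pH 4.0, was shared by 764 genes, 12.4% of those tested. The dehydrogenase fell in it only narrowly, with a limma adjusted p of 0.0577 for pH 6.0 against pH 4.0. The 2 comparisons with pH 2.0 share their pH 2.0 libraries.

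**Figure D2:**
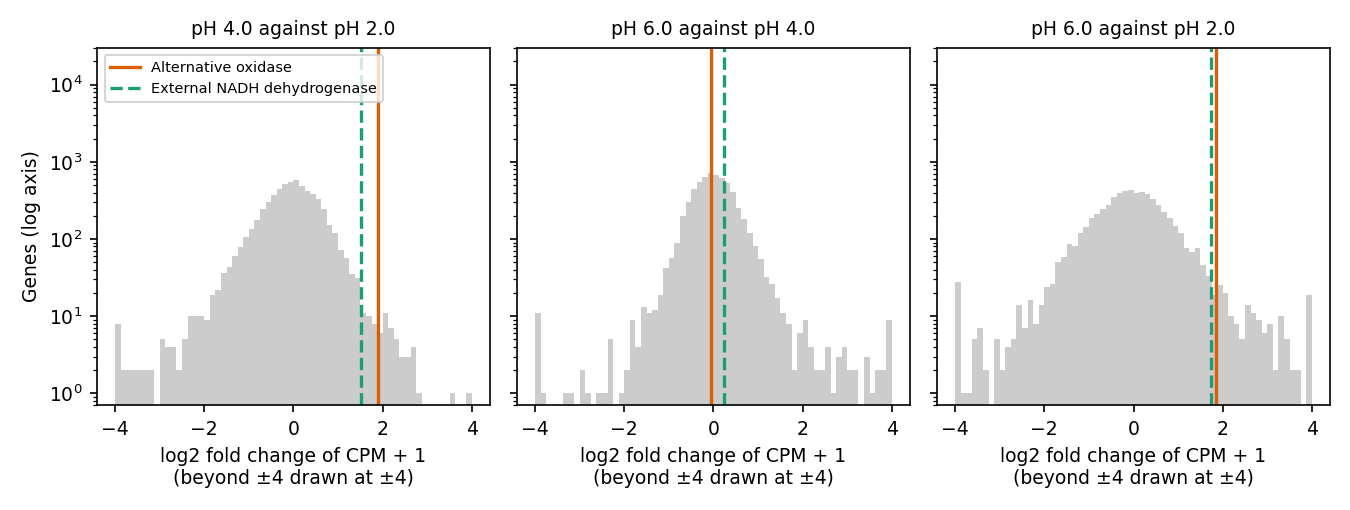
Number of genes (log axis) by log2 fold change of CPM + 1 in the 3 comparisons, with the alternative oxidase as a solid line and the external NADH dehydrogenase as a dashed line. Both lie in the upper tail against pH 2.0, and near the centre for pH 6.0 against pH 4.0, at -0.05 and 0.23.

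The replicates of the oxidase were uneven at low pH. Its coefficient of variation was 36.0% at pH 2.0, 18.2% at pH 4.0 and 4.28% at pH 6.0, where the median over all genes was 7.61%, 9.67% and 6.51%. At pH 2.0, 5.16% of genes varied at least as much, and replicate B was 2.02 times replicate A. The dehydrogenase varied by 13.4% at pH 2.0, 2.47% at pH 4.0 and 5.83% at pH 6.0. Without pH 2.0 replicate A, the lowest library of both genes, the log2 fold change of the oxidase for pH 6.0 against pH 2.0 was 1.61, and without replicate B, the highest, it was 2.12. Both values were called (limma adjusted p = 3.01e-05 and 1.51e-06).

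Replicates with more oxidase transcript than others at the same pH tended to have more dehydrogenase transcript. At pH 2.0 both genes were lowest in replicate A and highest in replicate B. At pH 6.0 both were lowest in replicate B and highest in replicate C, and at pH 4.0 both were highest in replicate A. The lowest at pH 4.0 was replicate B for the oxidase and replicate C for the dehydrogenase. Deviations from the group means on the log2 scale, which share each library's scaling, correlated at r = 0.88 over the 9 libraries, against a median of 0.04 for the oxidase with all genes ranked. Without pH 2.0 replicates A and B, whose oxidase deviations lie farthest from the median deviation, r was 0.49 over 7 libraries, so the relation rests largely on those libraries.

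Within a library the scaling cancels in the ratio of the 2 genes, and no change of that ratio with pH was called. The log2 ratio of oxidase CPM over dehydrogenase CPM, not corrected for gene length, was 0.86, 1.51 and 1.17 in replicates A, B and C at pH 2.0. It was 1.79, 1.32 and 1.59 at pH 4.0 in the same order, and the pH 6.0 cultures had 1.35, 1.27 and 1.24. The mean log2 ratio was 1.18 ± 0.33 at pH 2.0, 1.57 ± 0.23 at pH 4.0, and 1.29 ± 0.06 at pH 6.0 (SD, n = 3 each), and each group's range overlapped those of the others. An exact permutation test of the F statistic over every assignment of the 9 libraries to the 3 pH values gave p = 0.204, where the smallest possible p is 0.00357. For pH 6.0 against pH 2.0 the ratio differed by 0.11 on the log2 scale, and by -0.05 to 0.27 when 1 library was left out. The other differences were larger: the ratio at pH 4.0 was higher by 0.385 than at pH 2.0 (0.226 to 0.551 when 1 library was left out), and at pH 6.0 against pH 4.0 it differed by -0.279 (-0.402 to -0.168). The exact permutation tests of the 3 pairs, in which 3 against 3 libraries cannot go below p = 0.1, gave p = 0.7 for pH 6.0 against pH 2.0 and p = 0.2 for each of the others. Without pH 2.0 replicate B the exact test over the 3 pH values gave p = 0.0357.

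**Figure D3:**
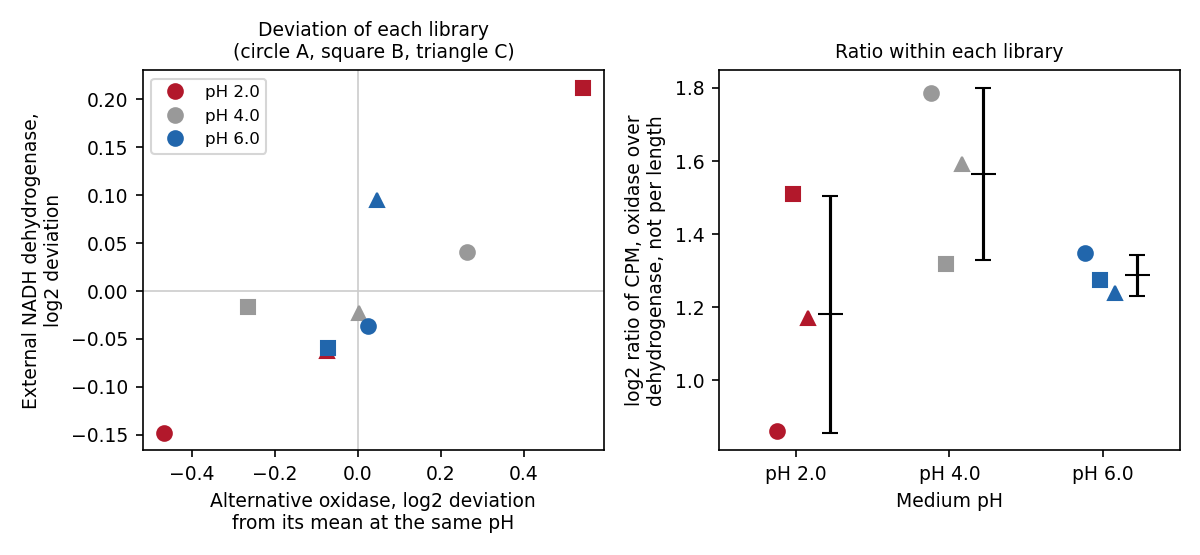
Left, deviation of each library from its group mean on the log2 scale for the alternative oxidase (x) and the external NADH dehydrogenase (y), coloured by pH. Right, log2 ratio of their CPM in each library with the mean ± SD (n = 3). Replicates A and B at pH 2.0 lie at the 2 ends of the left plot, and the ratios overlap between pH values.

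Listed genes of respiration moved less. A list of 24 loci was drawn up around the bypass, with functions attached to locus tags from general knowledge of published assignments, since the expression table names no functions. At pH 6.0 against pH 2.0, 10 of the 24 were higher, 5 were lower and 9 were not called, where 35.1% of all genes were higher and 37.9% lower. Their log2 fold changes ran from -0.52 to 0.85 with a median of 0.07, beside -0.04 over all genes. These directions depend on the scaling: with libraries scaled to equal totals, which moves the median of all genes to -0.25, 4 were higher and 11 lower, where 24.7% of all genes were higher and 48.7% lower. Under quantile normalization 3 were higher and 14 lower, where 34.2% of all genes were higher and 35.7% lower. At pH 4.0 against pH 2.0, 13 were higher and 1 was lower, where 30.8% of all genes were higher and 32.6% lower. With equal totals 5 were higher and 4 lower in that comparison, where 20.5% of all genes were higher and 46.6% lower, and under quantile normalization 3 were higher and 9 lower, where 30.9% and 28.5% were. The 2 bypass genes were called higher in both comparisons under every one of these scalings, with log2 fold changes of 1.62 to 1.89 for the oxidase and 1.20 to 1.74 for the dehydrogenase.

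Among enzymes that reduce ubiquinone, the entry points beside the external NADH dehydrogenase went different ways. The 75 kDa subunit of complex I, the proton-pumping NADH dehydrogenase (YALI0D05467g), was at 365 ± 4.76 CPM at pH 2.0, 272 ± 5.88 CPM at pH 4.0, and 254 ± 5.30 CPM at pH 6.0 (SD, n = 3 each). It fell by 0.52 on the log2 scale for pH 6.0 against pH 2.0 (SE 0.06, limma adjusted p = 1.37e-05) and by 0.42 for pH 4.0 against pH 2.0 (limma adjusted p = 0.000117), and both calls were made under every alternative. The iron-sulfur subunit of succinate dehydrogenase, which links the citric acid cycle to ubiquinone (YALI0D23397g), fell by 0.43 for pH 6.0 against pH 2.0 (limma adjusted p = 0.00029). Its flavoprotein subunit (YALI0D11374g) was not called, with a log2 fold change of -0.02, but was called lower with equal totals (-0.23) and under quantile normalization (-0.40). The mitochondrial glycerol 3-phosphate dehydrogenase (YALI0B13970g), which like the bypass enzyme feeds cytosolic reducing power into ubiquinone, averaged 1222 ± 71.6 CPM at pH 6.0 and 828 ± 36.2 CPM at pH 2.0 (SD, n = 3 each). It was higher by 0.56 on the log2 scale (SE 0.08, limma adjusted p = 6.19e-05).

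On the ubiquinol side, the bc1 complex is the route that the alternative oxidase passes by. Of its 2 listed nuclear-encoded subunits, YALI0A14806g had a log2 fold change of 0.29 for pH 6.0 against pH 2.0 (limma adjusted p = 0.00149), a call lost with equal totals (0.08) and under quantile normalization (0.04). The other, YALI0A17468g, was not called (0.07), but was called lower under quantile normalization (-0.25). The 6 listed subunits of ATP synthase, which uses the proton gradient, had log2 fold changes of -0.25 to 0.29 for pH 6.0 against pH 2.0. Of the 6, 3 were higher and 2 lower, where 35.1% of all genes were higher and 37.9% lower. The higher calls, YALI0F03179g, YALI0B03982g and YALI0F02893g, were lost with equal totals and under quantile normalization. YALI0F20306g, not called in the main test, was called lower under both scalings (-0.23 and -0.40). With equal totals 0 of the 6 were thus higher and 3 lower, where 24.7% of all genes were higher and 48.7% lower.

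Of 9 mitochondrial enzyme genes that form NADH or belong to complexes that do, 4 were higher and 1 lower for pH 6.0 against pH 2.0. The other 4 were not called, and 35.1% of all genes were higher and 37.9% lower. With equal totals 3 were higher and 3 lower, where 24.7% of all genes were higher and 48.7% lower. Under quantile normalization the higher calls of YALI0D23683g and YALI0E16929g were lost. YALI0E27005g, YALI0E05137g, YALI0D06303g and YALI0E33517g were then called lower (-0.34 to -0.24), where 34.2% of all genes were higher and 35.7% lower. For pH 4.0 against pH 2.0, 7 were higher and 0 lower, where 30.8% and 32.6% of all genes were. With equal totals, 4 were higher and 1 lower in that comparison, where 20.5% and 46.6% were. Under quantile normalization the higher calls of YALI0F20702g, YALI0E27005g, YALI0D06303g and YALI0E16929g were lost there. YALI0E33517g was then called lower (-0.41), where 30.9% of all genes were higher and 28.5% lower. The 1 lower call of the main test, mitochondrial malate dehydrogenase (YALI0D16753g) for pH 6.0 against pH 2.0, was lost in DESeq2 and in some fits without 1 library. Dihydrolipoamide dehydrogenase (YALI0D20768g), shared by the pyruvate and 2-oxoglutarate dehydrogenase complexes, had the largest log2 fold change of the 24 listed loci, at 863 ± 10.1 CPM at pH 6.0 and 478 ± 13.5 CPM at pH 2.0 (SD, n = 3 each; log2 0.85, SE 0.07, limma adjusted p = 1.19e-06). The alpha subunit of pyruvate dehydrogenase (YALI0F20702g) rose by 0.50 (limma adjusted p = 3.51e-05). A subunit of NAD-dependent isocitrate dehydrogenase (YALI0E05137g) was higher at pH 4.0 than at pH 2.0 by 0.61 and was not called for pH 6.0 against pH 2.0 (0.14), where quantile normalization called it lower (-0.24). In cytosolic NADH turnover, glyceraldehyde 3-phosphate dehydrogenase (YALI0C06369g), which makes NADH in glycolysis, had a log2 fold change of 0.21 for pH 6.0 against pH 2.0 (limma adjusted p = 0.0297), a call lost under 8 of 20 alternatives. The cytosolic glycerol 3-phosphate dehydrogenase (YALI0B02948g) and the malate dehydrogenase outside the mitochondrion (YALI0E14190g) were not called (-0.17 and 0.01), and with equal totals and under quantile normalization both were called lower.

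**Figure D4:**
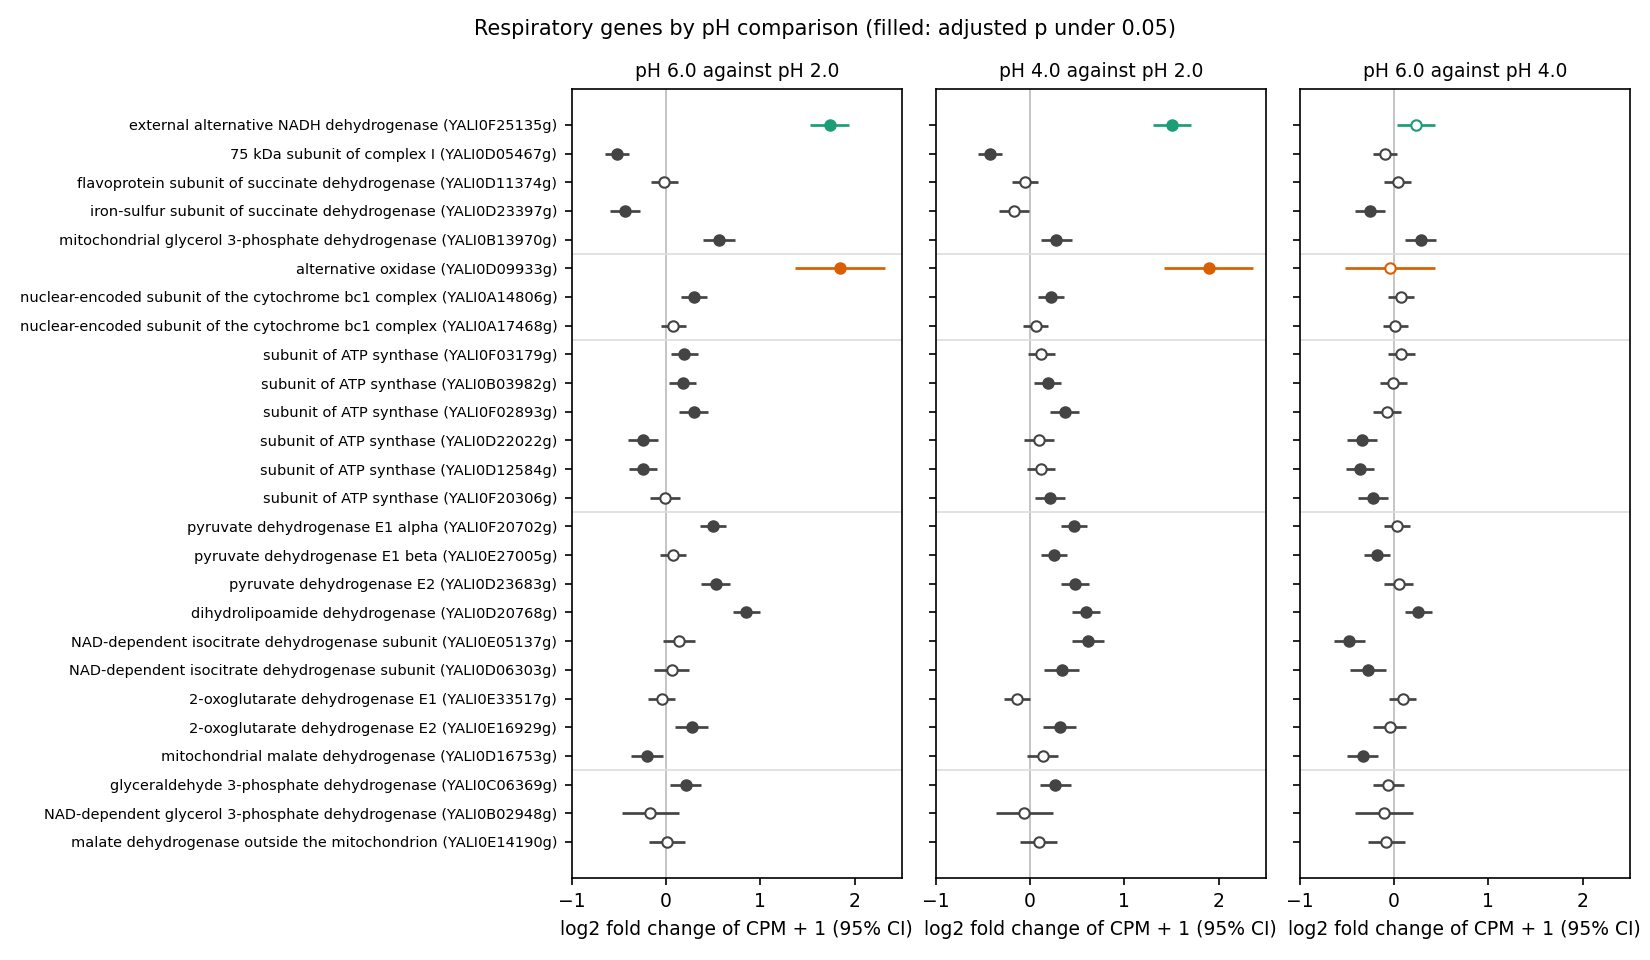
Log2 fold change of CPM + 1 with 95% confidence interval for the 2 bypass genes (coloured) and the 24 listed respiratory loci in 3 comparisons. Filled points have a limma adjusted p under 0.05. The bypass genes lie at 1.85 and 1.74 for pH 6.0 against pH 2.0, and the other loci between -0.52 and 0.85.

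The difference between the bypass genes and the listed loci was tested on log2 ratios within each library, in which the scaling cancels. This test was chosen after the values had been seen, when every listed locus was known to have changed less. Its outcome was thus largely set beforehand, and its passes describe the values without adding support. For each of 48 pairs of a bypass gene and a listed locus, the F statistic of the log2 ratio over the 3 pH values was compared with that of every assignment of the libraries. All 24 ratios of the oxidase and all 24 of the dehydrogenase passed at an adjusted p under 0.05 over the 48 pairs (exact permutation test, adjusted p of 0.00635 to 0.0357 for the oxidase and 0.00635 to 0.0327 for the dehydrogenase). The 24 ratios of a bypass gene share that gene's values and are not independent. For pH 6.0 against pH 2.0 the ratio of the oxidase to a listed locus was higher by 0.995 to 2.37 on the log2 scale, and that of the dehydrogenase by 0.89 to 2.26. In every pair each pH 6.0 library was above each pH 2.0 library. For pH 6.0 against pH 2.0, 2.66% of all genes rose at least as much as the oxidase. For the dehydrogenase that share was 2.9%. Most genes of the table would thus also give a higher ratio, which is not particular to the listed loci. The share of all genes that would pass was not counted.

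The external NADH dehydrogenase was set against YALI0D05467g, the only complex I subunit among the 24 listed loci. The log2 ratio was -0.34 ± 0.20 at pH 2.0, 1.59 ± 0.03 at pH 4.0, and 1.92 ± 0.10 at pH 6.0 (SD, n = 3 each). The difference of 2.26 between pH 6.0 and pH 2.0 was 2.19 to 2.38 when 1 library was left out. It was the highest for the dehydrogenase over the 24 listed loci, whose median was 1.67, and 1 subunit does not stand for all of complex I. The alternative oxidase set against the bc1 subunit YALI0A14806g had a log2 ratio of -0.23 ± 0.50 at pH 2.0, 1.45 ± 0.23 at pH 4.0, and 1.33 ± 0.06 at pH 6.0 (SD, n = 3 each), a difference of 1.55 between pH 6.0 and pH 2.0 (1.32 to 1.82 when 1 library was left out). The ratios are of CPM, not per length, so only their differences between pH values can be read.

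The mitochondrial genome also encodes subunits of complex I, the bc1 complex, cytochrome c oxidase and ATP synthase. Its 14 rows with the prefix YalifMp, chosen after the table had been seen, were all tested. For pH 6.0 against pH 2.0, 11 of the 14 were called lower in limma, where 37.9% of all genes were, and for pH 6.0 against pH 4.0, 12 were, where 25.8% of all genes were. For pH 4.0 against pH 2.0, where both bypass genes were called higher, limma called 0 of the 14, with 1 lower at an unadjusted p under 0.05, and edgeR and DESeq2 called 1 lower. The sum was 328, 190.5 and 93.9 CPM in replicates A, B and C at pH 2.0, 231, 149 and 161 CPM at pH 4.0, and 84.35, 74.96 and 45.66 CPM at pH 6.0. It was highest in replicate A at every pH, the library with the least transcript of both bypass genes at pH 2.0 and with the most at pH 4.0. The part of such library differences in the spread of the bypass genes was not tested. The regulator of hyphal growth YALI0B21582g, the only gene listed for filamentous growth, averaged 39.4 ± 3.52 CPM at pH 2.0, 28.1 ± 6.45 CPM at pH 4.0, and 34.9 ± 4.02 CPM at pH 6.0 (SD, n = 3 each). The level of 1 transcript does not show cell form. It was called lower at pH 4.0 than at pH 2.0 (log2 -0.50, limma adjusted p = 0.0181), a call lost under 2 of 20 alternatives. For pH 6.0 against pH 2.0 it was not called (-0.17), but was called lower with equal totals (-0.38). The part of this gene in these results was not tested.

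Likeness of pattern was measured as Pearson's r of log2(CPM + 1) over the 9 libraries among genes with a mean of at least 10 CPM. These r values mainly reflect the group means and are a description. The genes most like the oxidase were YALI0C09845g (r = 0.998), YALI0B01078g (0.992), YALI0B23122g (0.991), YALI0D10769g (0.990) and YALI0C16973g (0.990). Of these, YALI0D10769g was nearest in size of change, averaging 77.8 CPM at pH 2.0, 311 CPM at pH 4.0 and 298 CPM at pH 6.0. YALI0C09845g averaged 125 CPM at pH 2.0, 302 CPM at pH 4.0, and 304 CPM at pH 6.0. The dehydrogenase ranked 71st of 5344 genes by likeness to the oxidase (r = 0.971).

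The genes most like the dehydrogenase were YALI0D01980g (r = 0.994), YALI0B02728g (0.994), YALI0B04356g (0.994), YALI0D12386g (0.994) and YALI0E34947g (0.993). YALI0E34947g averaged 245 CPM at pH 2.0, 655 CPM at pH 4.0, and 869 CPM at pH 6.0. The oxidase ranked 198th among the 5344 genes by likeness to the dehydrogenase, and the 2 sets of 5 had different genes.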

How the data were processed

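The deposited table holds 6170 gene rows and 1 column for each of the 9 libraries. Per the file headers, the authors gave each gene's reads as CPM after division by the effective library size from edgeR, which is a signal comparable between libraries. Per the labels' protocols, libraries were stranded and read for 101 cycles. The submitters' processing notes name TopHat2 2.0.10, HTSeq, edgeR, Trimmomatic 0.30 and bcl2fastq 1.8.4 with no role; genome build, annotation and whether counting used strand were not given in the sources used here. Each value was a whole multiple of what 1 read is worth (100% of values, tolerance 0.01 reads), so reads could be recovered, and TMM factors recomputed from them equalled the deposited scaling. The reference table matched 0 identifiers, so no coordinates are given.

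A gene entered the test with 1 CPM or more in 3 or more libraries (6165 genes). Values were tested as log2(CPM + 1) with limma 3.58.1 (R 4.3.3, mean-variance trend, 1 fit over 9 libraries, 6 residual degrees of freedom), after a check of the code on simulated data. Few genes changed in that simulation, unlike in these data, so it does not test the scaling. Replicates are taken as separate cultures from the labels. Alternatives included edgeR 4.0.16 and, from the same recovered reads, DESeq2 1.42.0. Named are the 2 bypass genes, the listed loci, and for each bypass gene the 5 genes of highest r. Members, lists and tests were chosen with earlier results of these data known.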

Additional observations from a re-analysis of the deposited data

How the results depend on the processing

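Both bypass genes kept their higher call for pH 6.0 and for pH 4.0 against pH 2.0 in all 20 alternatives run, and their step difference in the 19 that can give it (not the fits of 2 groups): a lower and a higher pseudocount (0.25, 5), a stricter filter (10 CPM) or none, equal totals, quantile normalization, replicate block, no trend, fits of the 2 groups compared (pairwise comparisons), edgeR, DESeq2 and leaving out each library. For pH 6.0 against pH 2.0 the log2 fold change ranged from 1.61 to 2.12 for the oxidase and from 1.47 to 1.84 for the dehydrogenase. The dehydrogenase was called for pH 6.0 against pH 4.0 under quantile normalization (0.268), in the fit of 2 groups (0.232), in DESeq2 (0.242; edgeR adjusted p = 0.0613), and in the fits that left out replicate A or B of pH 2.0 (range without single libraries 0.185 to 0.261). The F statistic of the oxidase to dehydrogenase ratio was 0.889 to 5.62 without single libraries. The listed loci changed most: for pH 6.0 against pH 2.0, 4 higher and 11 lower with equal totals and 3 and 14 under quantile normalization, and for pH 4.0 against pH 2.0, 5 and 4, and 3 and 9. Equal totals also moved the share of higher genes among those called from 48.1% to 33.6% for pH 6.0 against pH 2.0, and from 48.6% to 30.6% for pH 4.0 against pH 2.0. The letters A, B and C showed no clear pairing of the cultures. Of 9 same-letter correlations of deviations, 3 were above 0.1 (range -0.204 to 0.269), beside 5 of 18 between different letters (-0.291 to 0.218). Only 1 library correlated best with its own letter, but so few correlations cannot exclude a pairing. With the letters as a block, the log2 fold changes were 1.85 and 1.74 for pH 6.0 against pH 2.0, and 4430 genes were called instead of 4498. No call of a bypass gene changed.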
